A study of Mus musculus with 12 samples.

Results

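The antiviral effector genes that interferon induces were followed in dystrophic mouse muscle under 3 drug treatments. They are the products that act on viral RNA, viral proteins or the host cell once interferon has signalled: sensors of foreign nucleic acid, the IFIT and Mx proteins, viperin and tetherin, the ISG15 conjugation system, TRIM ligases, PARP enzymes, Schlafen proteins and others. From a list of 43 such genes, 41 were measured by an array cluster paired with exactly 1 gene symbol, each by a single cluster, out of 30412 clusters of that kind. Phf11d and Ifi44 had no such cluster and were not analysed here, and Ifi213 was found through an older symbol.

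RNA came from quadriceps of 12 male mice aged 6 weeks on the C57BL/10 background. All 12 were utrn+/-;mdx, meaning that they lacked dystrophin through the mdx allele and had a single working copy of the utrophin gene. Every group, the untreated mice included, was thus dystrophic muscle. The 4 groups held 3 mice each, with 1 array per mouse. Untreated mice ate normal chow. A second group received spironolactone at 100 mg/kg per day with lisinopril at 20 mg/kg per day, and the third received eplerenone at 200 mg/kg per day with the same lisinopril dose, both in medicated pellets. The fourth received prednisolone at 1.5 mg/kg per day in water, and all drugs ran from 4 to 6 weeks of age. Spironolactone and eplerenone block the mineralocorticoid receptor, lisinopril inhibits angiotensin-converting enzyme, and prednisolone is a glucocorticoid. Neither healthy mice nor mice on drug-free pellets were among the samples.

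Type I interferons bind the receptor formed by Ifnar1 and Ifnar2, whose associated kinases include Jak1 and Tyk2. Stat2 and Irf9 are parts of the complex that then binds the interferon-stimulated response element in the promoters of antiviral genes, while interferon gamma acts through a different element. Dystrophic muscle contains degenerating and regenerating fibres together with infiltrating macrophages and other immune cells, and both fibres and immune cells can express interferon-stimulated genes. Glucocorticoids bind a nuclear receptor that represses many inflammatory genes.

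Promoter sequences are shown first, for some of the genes of the set whose letters match the core of the interferon-stimulated response element. Ifih1, Ddx58, Eif2ak2, Ifit3, Trim21 and Slfn5 also matched and are not printed. Of these, Ifit3 and Trim21 did not pass the test below, while every gene printed as a short window did. The RefSeq table (GRCm38.p6) held the interval from 250 bases before to 50 after the start for 30 of the 41 genes, and 5 of these had several promoters. The core was searched on both strands as GAAA, any 2 bases (NN) and GAAA in a row, with overlapping matches counted. It occurred in 15 of the 30 genes (50%), against 3.99% of all 27025 genes in the table. Among the other interferon pathway genes followed below, it occurred in 23 of 59 (39%). These were 9 of 17 interferon genes, 4 of 6 oligoadenylate synthetase genes, 6 of 6 interferon-inducible GTPases and a few others, with none among 5 receptor genes. A longer core, with CT directly after the shorter core, was present in 8 of 30 effector genes (26.7%) against 0.303% of all genes. TTCNNNGAA, the core of the element for interferon gamma, was present in 5 of 30 (16.7%) against 9.55%. These are matches of letters and not sites shown to be bound. Below, matches of the shorter core, or of its reverse complement (TTTC, NN and TTTC), are in capitals, and each window of 42 bases reads 5′ to 3′ on the gene's own strand.

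Ifit1, distal match, chr19:34640769-34640810, plus strand: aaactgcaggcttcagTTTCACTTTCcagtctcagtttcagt
Ifit1, proximal match, chr19:34640788-34640829, plus strand: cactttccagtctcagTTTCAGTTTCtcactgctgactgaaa
Rsad2, chr12:26456547-26456588, minus strand: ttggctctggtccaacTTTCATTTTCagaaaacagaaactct
Ifi213, chr1:173599320-173599361, minus strand: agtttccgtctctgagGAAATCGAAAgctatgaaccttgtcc
Trim30a, chr7:104465204-104465245, minus strand: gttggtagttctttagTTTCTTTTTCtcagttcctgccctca
Trim30d, chr7:104507865-104507906, minus strand: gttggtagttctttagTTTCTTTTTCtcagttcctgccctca
Slfn8, chr11:83020833-83020874, minus strand: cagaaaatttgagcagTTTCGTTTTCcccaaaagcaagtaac
Phf11b, chr14:59341355-59341396, minus strand: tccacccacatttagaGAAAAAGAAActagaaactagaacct

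Ifit1 carried 2 matches, at -104 to -95 and at -85 to -76 relative to the start. Trim30a and Trim30d, neighbouring genes of the same family, carried an identical window of 42 bases. Slfn8 has 2 listed starts within the same stretch, so its match was seen from both. Bst2 and Isg15 are shown over the whole 250 bases before the start, since both carry overlapping matches while Bst2 fell under prednisolone and Isg15 did not pass the test.

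Bst2, chr8:71537473-71537722, minus strand: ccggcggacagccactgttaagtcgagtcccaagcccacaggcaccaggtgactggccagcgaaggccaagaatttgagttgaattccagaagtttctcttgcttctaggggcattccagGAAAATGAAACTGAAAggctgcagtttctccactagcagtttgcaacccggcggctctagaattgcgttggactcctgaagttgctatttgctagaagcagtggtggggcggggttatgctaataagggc

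Isg15, chr4:156200819-156201068, minus strand: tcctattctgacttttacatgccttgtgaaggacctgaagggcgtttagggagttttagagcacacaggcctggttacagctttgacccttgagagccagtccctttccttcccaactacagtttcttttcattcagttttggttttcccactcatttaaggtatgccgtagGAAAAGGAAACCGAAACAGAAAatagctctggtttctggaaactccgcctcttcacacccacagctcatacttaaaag

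In Bst2, 2 overlapping matches spanned -130 to -115, and in Isg15, 3 overlapping matches spanned -78 to -57. Among the 15 genes with a match, 12 passed the test below under prednisolone (median log2 difference -1.54). Of the 15 genes whose listed promoters lacked one, 13 passed (median -0.95). A further 11 genes had no listed promoter, of which 10 passed (median -0.97). Whether a match went with the size of the fall was not tested.

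Nearly the whole set was lower under prednisolone. Of the 41 genes, 35 were lower than in untreated muscle at an adjusted p under 0.05 (limma, Benjamini-Hochberg over all 30412 clusters), and none was higher. Over all clusters tested, 3.17% were called lower and 3.22% higher in the same comparison. The median log2 difference of the set was -1.26, with a range of -3.22 to -0.23, beside a median of -0.01 over all clusters. All 41 differences were below 0, against 52.7% of all clusters. In 40 of the 41 genes every prednisolone array lay below every untreated array, which was so for 13.3% of all clusters. Trim21 was the exception. A fall of at least 2-fold was reached by 25 genes, against 1.17% of clusters. Values are deposited log2 signals, differences are given ± SE with n = 3 arrays per group, and the median SE over all clusters was 0.13.

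**Figure D1:**
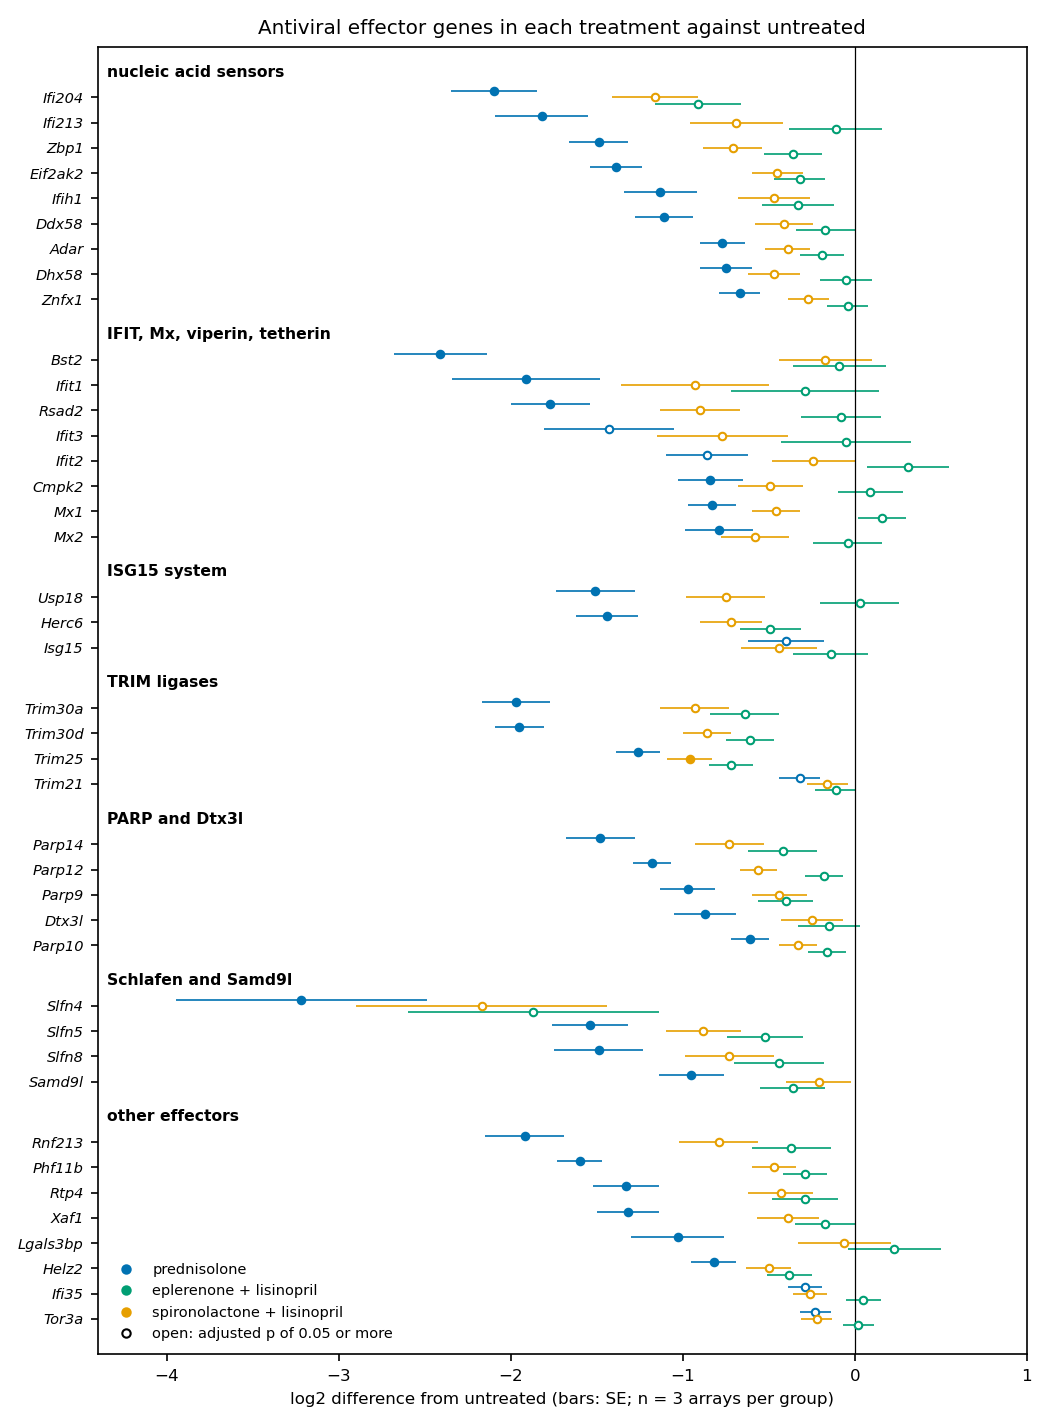
Log2 difference from untreated muscle for the 41 antiviral effector genes, grouped by role, in prednisolone (blue), spironolactone plus lisinopril (orange) and eplerenone plus lisinopril (green), with bars for the SE and filled points for an adjusted p under 0.05. Of the prednisolone points 35 are filled, of the spironolactone points only Trim25, and of the eplerenone points none.

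All 9 sensors and nucleic acid-binding effectors fell under prednisolone. Ifi204, a member of the Ifi200 family of DNA-binding proteins, read 14.12, 14.40 and 15.36 in the untreated arrays and 12.51, 12.48 and 12.58 under prednisolone. It read 13.50, 13.26 and 13.63 with spironolactone plus lisinopril and 13.78, 13.72 and 13.65 with eplerenone plus lisinopril. Untreated muscle was thus above all 9 treated arrays, and prednisolone below all others. The difference under prednisolone was -2.10 ± 0.25 (4.3-fold lower, adjusted p = 0.0027). Ifi213, of the same family, read 8.40, 8.14 and 8.79 untreated, 8.13, 7.29 and 7.84 with spironolactone plus lisinopril, 8.82, 8.35 and 7.84 with eplerenone plus lisinopril, and 6.43, 6.74 and 6.70 under prednisolone. Here only prednisolone stood apart from the other 9 arrays, at a difference of -1.82 ± 0.27 (adjusted p = 0.00479). Zbp1, a sensor of Z-form nucleic acid, fell by 1.49, and for Eif2ak2, the kinase PKR that halts translation on sensing double-stranded RNA, the difference was -1.39. The cytoplasmic RNA helicases Ifih1 (MDA5) and Ddx58 (RIG-I) fell, with differences of -1.13 and -1.11, as did their relative Dhx58 (LGP2) at -0.75. Adar, which edits double-stranded RNA, was at -0.77 and the helicase Znfx1 at -0.67.

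Of the 8 genes in the IFIT, Mx, viperin and tetherin group, 6 fell. Bst2, which encodes tetherin and holds budding virions at the cell surface, read 13.43, 13.39 and 13.39 in untreated muscle. With spironolactone plus lisinopril it read 13.42, 12.87 and 13.40, with eplerenone plus lisinopril 13.74, 13.62 and 12.60, and under prednisolone 11.30, 10.72 and 10.97. The untreated mice were nearly alike, both combinations overlapped them, and the prednisolone arrays lay far below all others. Bst2 fell by 2.41 ± 0.27 (5.32-fold, adjusted p = 0.00217). Ifit1, which binds viral RNA lacking a host cap methylation, read 8.23, 8.04 and 9.72 untreated, 7.91, 7.10 and 8.18 with spironolactone plus lisinopril, 8.64, 8.76 and 7.72 with eplerenone plus lisinopril, and 6.60, 6.96 and 6.71 under prednisolone. Untreated array 3 was high for Ifit1 and widened the error: the difference under prednisolone was -1.91 ± 0.43 (adjusted p = 0.0277). It no longer passed without that array (-1.38) or without any 1 of the prednisolone arrays. Rsad2, which encodes viperin, fell by 1.77 ± 0.23, and its gene neighbour Cmpk2, a mitochondrial nucleotide kinase, fell by 0.84. The dynamin-like GTPases Mx1 and Mx2 fell too, at -0.83 and -0.79. Ifit2 and Ifit3, next to each other in the genome, were at -0.86 (adjusted p = 0.062) and -1.43 (adjusted p = 0.0507), and neither passed.

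The ISG15 system attaches the ubiquitin-like protein Isg15 to other proteins. Usp18, which removes Isg15 and also restrains the interferon receptor, read 8.39, 8.07 and 8.55 untreated, 7.45, 7.15 and 8.17 with spironolactone plus lisinopril, 8.37, 8.65 and 8.08 with eplerenone plus lisinopril, and 6.88, 6.76 and 6.86 under prednisolone. Under prednisolone Usp18 fell by 1.51 ± 0.23 (adjusted p = 0.00626). Herc6, the mouse ligase for Isg15, read 9.08, 8.87 and 9.55 untreated, 8.47, 8.25 and 8.61 with spironolactone plus lisinopril, 8.85, 8.83 and 8.33 with eplerenone plus lisinopril, and 7.71, 7.80 and 7.66 under prednisolone. The 3 untreated arrays were the highest of all 12 for Herc6, and the gene fell by 1.44 ± 0.18 under prednisolone (adjusted p = 0.00338). Isg15 itself did not pass. It read 6.36, 6.36 and 6.90 untreated, 6.09, 5.72 and 6.47 with spironolactone plus lisinopril, 6.38, 6.74 and 6.08 with eplerenone plus lisinopril, and 6.09, 6.23 and 6.08 under prednisolone. The difference under prednisolone was -0.40 ± 0.22 (adjusted p = 0.319), in a gene whose promoter held 3 matches. Isg15 was also the 1 gene of the set whose lowest group mean was with spironolactone plus lisinopril and not with prednisolone.

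Among the TRIM ubiquitin ligases, 3 of 4 fell. Trim30a read 9.90, 10.24 and 10.80 untreated, 9.60, 9.13 and 9.41 with spironolactone plus lisinopril, 9.89, 9.60 and 9.54 with eplerenone plus lisinopril, and 8.33, 8.32 and 8.37 under prednisolone. Trim30d read 9.19, 9.34 and 9.65, then 8.55, 8.31 and 8.74, then 8.90, 8.78 and 8.67, and 7.56, 7.35 and 7.43 in the same order of groups. Both paralogs put the untreated arrays at the top, the combinations between and prednisolone at the bottom, with no overlap at either step. Their differences under prednisolone were -1.97 ± 0.20 and -1.95 ± 0.14, and Trim30d had the smallest adjusted p of the set (0.000193). Trim25, which ubiquitinates RIG-I, read 10.79, 10.46 and 10.55 untreated, 9.65, 9.37 and 9.91 with spironolactone plus lisinopril, 9.96, 9.75 and 9.92 with eplerenone plus lisinopril, and 9.34, 9.28 and 9.41 under prednisolone. All 9 treated arrays of Trim25 lay below the untreated ones, and the combinations reached down towards prednisolone, with 1 spironolactone array inside its range. Trim25 fell by 1.26 ± 0.13 under prednisolone (adjusted p = 0.00198). Trim21, a cytosolic antibody receptor, was at -0.32 (adjusted p = 0.136).

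All 5 PARP-group genes and all 4 Schlafen-group genes fell. Parp14 read 10.02, 9.93 and 10.76 untreated, 9.63, 9.33 and 9.59 with spironolactone plus lisinopril, 10.03, 9.91 and 9.54 with eplerenone plus lisinopril, and 8.86, 8.73 and 8.71 under prednisolone, a difference of -1.48 ± 0.20. Parp12 read 10.56, 10.57 and 10.66, then 9.93, 9.92 and 10.26, then 10.47, 10.51 and 10.26, and 9.46, 9.32 and 9.47, with a difference of -1.18 ± 0.11 under prednisolone (adjusted p = 0.00097). These enzymes transfer ADP-ribose to proteins, and in both the prednisolone arrays lay below all others. Parp9 and its partner ligase Dtx3l, which lie in a row with Parp14 in the genome, fell (-0.97 and -0.87), as did Parp10 (-0.61). Slfn5 read 9.80, 9.63 and 10.57 untreated, 9.05, 8.87 and 9.43 with spironolactone plus lisinopril, 9.60, 9.52 and 9.31 with eplerenone plus lisinopril, and 8.53, 8.34 and 8.50 under prednisolone, a difference of -1.54 ± 0.22. Slfn8 (-1.49) and Samd9l (-0.95), a gene linked to restriction of poxviruses, also fell.

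Slfn4 had the largest difference of the set and the least even untreated values. It read 7.40, 10.48 and 9.55 untreated, 7.61, 7.42 and 5.90 with spironolactone plus lisinopril, 8.28, 6.39 and 7.16 with eplerenone plus lisinopril, and 6.05, 5.59 and 6.14 under prednisolone. The difference under prednisolone was -3.22 ± 0.73 (9.33-fold lower, adjusted p = 0.0275), and untreated array 1 lay within the range of both combinations. The call was lost without untreated array 2, without untreated array 3 and without any 1 of the prednisolone arrays, with values from -4.09 to -2.55. Measured from untreated array 1 alone, the difference was -1.48. The neutrophil genes S100a8 and S100a9 followed the same split, with S100a8 at 7.14, 12.93 and 12.03 in the 3 untreated arrays and S100a9 at 6.80, 12.45 and 11.35; their part in the Slfn4 values was not tested.

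Of the 8 remaining effectors, 6 fell. Rnf213, a large ubiquitin ligase that acts on intracellular pathogens, read 11.48, 11.37 and 12.08 untreated, 11.17, 10.51 and 10.90 with spironolactone plus lisinopril, 11.64, 11.25 and 10.93 with eplerenone plus lisinopril, and 9.69, 9.67 and 9.81 under prednisolone. The gene fell by 1.92 ± 0.23 under prednisolone (adjusted p = 0.0027). Phf11b read 11.12, 10.76 and 10.90 untreated, 10.36, 10.39 and 10.64 with spironolactone plus lisinopril, 10.86, 10.44 and 10.62 with eplerenone plus lisinopril, and 9.29, 9.28 and 9.40 under prednisolone, a difference of -1.60 ± 0.13 (adjusted p = 0.000416). Both genes had the prednisolone arrays far below the rest and only partial separation among the other 3 groups. Xaf1, a proapoptotic protein, and Rtp4, a chaperone, fell, at -1.32 and -1.33. Lgals3bp (-1.03, adjusted p = 0.0444) and the helicase Helz2 (-0.82) fell too. Ifi35 (-0.29, adjusted p = 0.118) and Tor3a (-0.23, adjusted p = 0.161) did not pass.

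**Figure D2:**
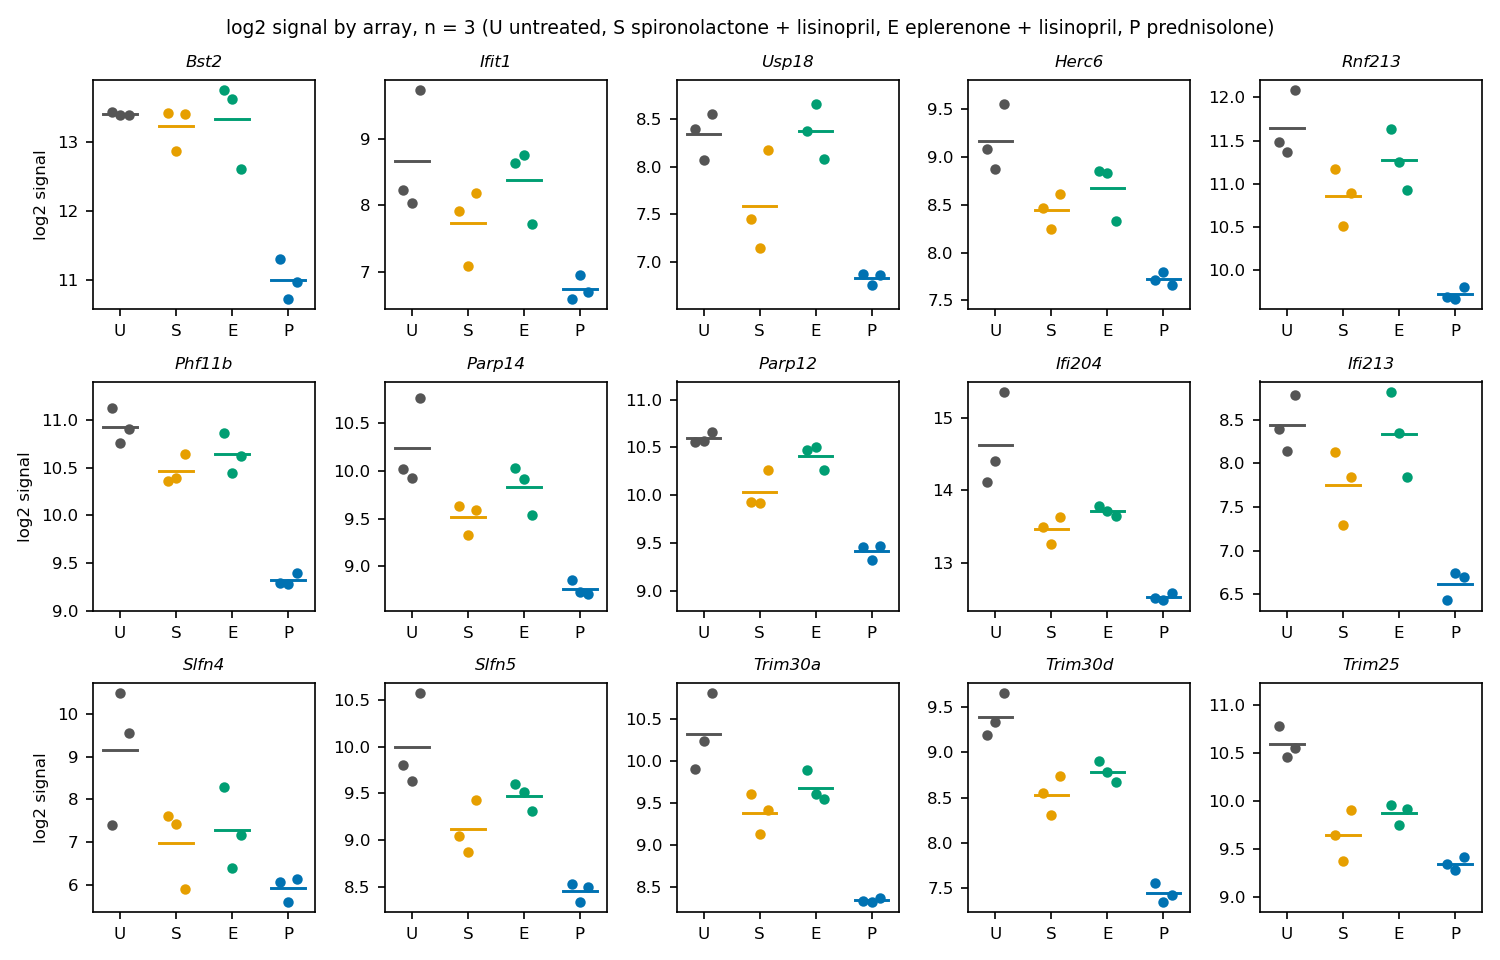
Log2 signal of 15 named effector genes in each array, with points for the 3 mice of a group and a line for the group mean (U untreated, S spironolactone plus lisinopril, E eplerenone plus lisinopril, P prednisolone); the vertical range differs between panels. The 3 prednisolone points lie below all untreated points in every panel, and for Slfn4 untreated array 1 sits at 7.40, far below the other 2.

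The values also lay closer together among the prednisolone mice. The median SD over the 41 genes was 0.09 under prednisolone, 0.27 untreated, 0.25 with spironolactone plus lisinopril and 0.20 with eplerenone plus lisinopril, and prednisolone had the smallest SD of the 4 groups in 29 genes. This spread was not compared by a test, and the same figures over all clusters were not computed. Whether it is particular to these genes is therefore not known. Within groups, the same array was often the highest or the lowest across the set. Untreated array 3 was the highest untreated array for 32 of the 41 genes and the highest of all 12 arrays for 25. Array 2 of the spironolactone group was the lowest of its group for 36 genes, and array 3 of the eplerenone group for 38. Shares over all clusters were not computed for these ranks within groups. The median deviation of the set from each gene's mean over all arrays was 0.44, 0.29 and 0.73 in the untreated arrays and -0.73, -0.79 and -0.76 under prednisolone. It was 0.03, -0.26 and 0.11 with spironolactone plus lisinopril, and 0.42, 0.28 and 0.04 with eplerenone plus lisinopril. Thus 2 eplerenone arrays sat at the level of untreated arrays 1 and 2, and the prednisolone arrays sat apart from all others. All 3 prednisolone arrays were the lowest of the 12 in 31 genes, and all 3 untreated arrays were the highest in 9, against 3.81% and 2.7% of all clusters.

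**Figure D3:**
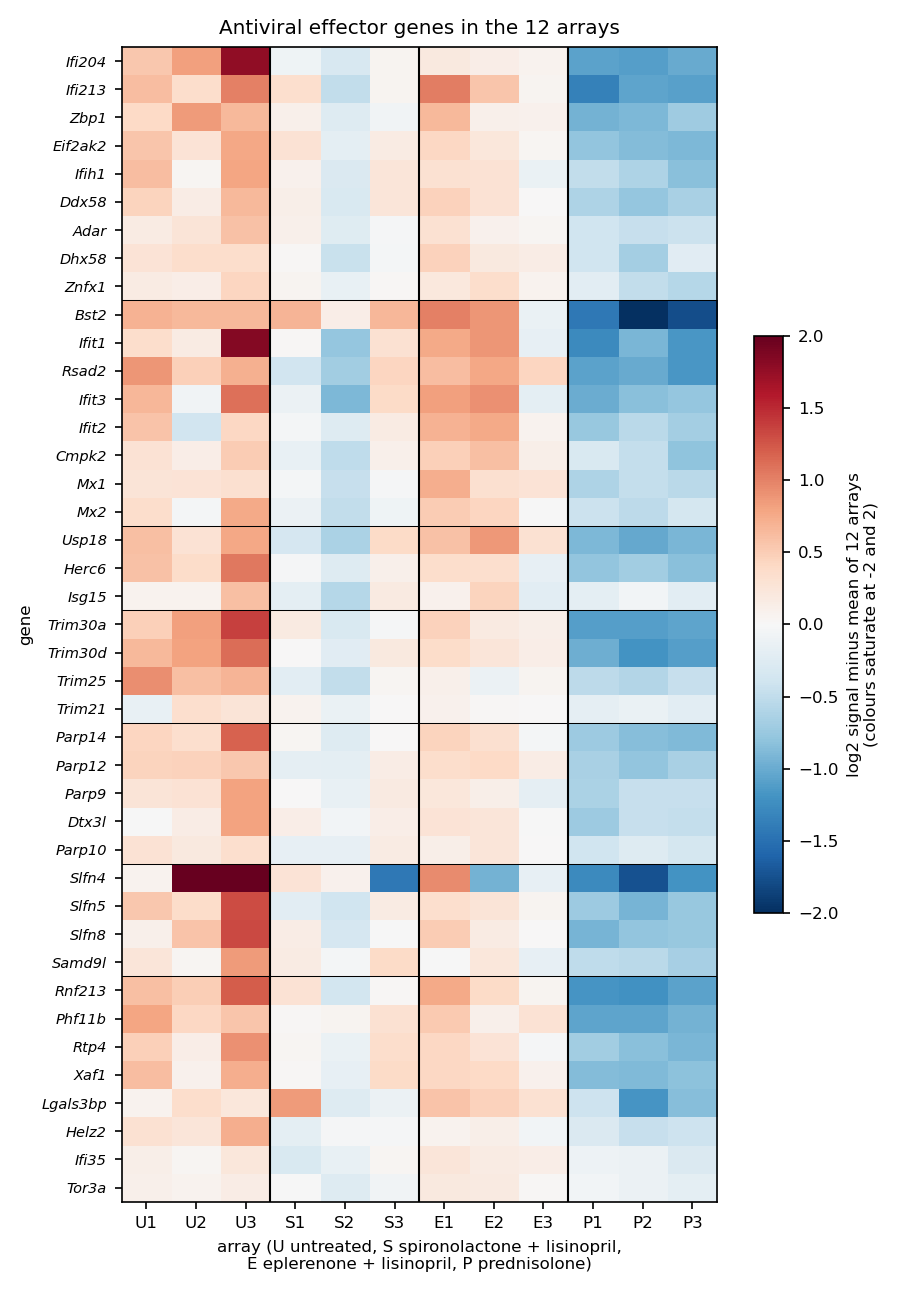
Log2 signal of the 41 effector genes (rows) in the 12 arrays (columns) minus each gene's mean over the arrays, red above and blue below that mean, with colours saturating at -2 and 2. The prednisolone columns are blue throughout, untreated array 3 is the reddest column, and array 2 of the spironolactone group and array 3 of the eplerenone group are paler or bluer than the arrays beside them.

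Of the 35 calls under prednisolone, 25 held without each of the 12 arrays in turn. The other 10 were lost without at least 1 array: Ifih1, Dhx58, Znfx1, Ifit1, Mx2, Cmpk2, Dtx3l, Slfn4, Samd9l and Lgals3bp. Against untreated array 1 as the only control, 13 genes passed, all of them among the 35, where 0.398% of all clusters were called lower, and all 41 differences were below 0. That fit takes its spread from the other groups and assumes that the lone array varies like them.

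With spironolactone plus lisinopril, Trim25 alone passed against untreated muscle. Its difference was -0.96 ± 0.13 (adjusted p = 0.0368), and 0.0625% of all clusters were called lower in that comparison. The call was lost without each array except untreated array 1 and spironolactone array 3, with values from -1.09 to -0.82. All 41 differences were below 0, with a median of -0.47 beside -0.04 over all clusters, where 59.2% lay below 0. At an unadjusted p under 0.05, 30 of the 41 were lower, against 9.84% of clusters. The groups did not overlap for 23 genes, against 13.1% of clusters. Trim30d (-0.86 ± 0.14, adjusted p = 0.0657) and Parp12 (-0.56 ± 0.11, adjusted p = 0.0997) came next in order of p. Bst2 was at -0.17 ± 0.27 (95% interval -0.77 to 0.42), and without spironolactone array 2 the sign turned, at 0.01. Slfn4 (-2.17) and Ifi204 (-1.16) were the only genes past a fold of 2, against 0.572% of clusters. Without untreated array 1, or without spironolactone array 3, 5 genes passed, where the share of all clusters called lower was 1.04% and 0.454%.

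With eplerenone plus lisinopril, no effector gene passed against untreated muscle by limma with Benjamini-Hochberg adjustment, where 0.023% of all clusters were called lower. At an unadjusted p under 0.05, 10 of the 41 were lower, against 7.33% of clusters. The median difference was -0.18, with 34 genes below 0 and 7 above (56% of clusters were below 0), and the groups did not overlap for 9 genes, against 9.23% of clusters. Trim25 had the smallest p here too, at -0.72 ± 0.13 (adjusted p = 0.115), followed by Trim30d at -0.61 ± 0.14 (adjusted p = 0.16). Ifit2 (0.31), Lgals3bp (0.23) and Mx1 (0.16) had the most positive differences. Slfn4 at -1.87 was the only gene past a fold of 2, against 0.483% of clusters. Without untreated array 1, 2 genes passed (Ifi204 and Trim30d), where 0.865% of all clusters were called lower. The comparisons against untreated muscle share the 3 untreated arrays, so their differences are not independent of each other.

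Set directly against prednisolone, several effector genes were higher with the combinations; both comparisons use the same 3 prednisolone arrays. With spironolactone plus lisinopril, 8 of 41 were higher and none lower, against 0.45% of clusters called higher and 0.372% lower. These were Bst2 (2.24 ± 0.27, adjusted p = 0.00802), Phf11b (1.14 ± 0.13, adjusted p = 0.00553), Rnf213 (1.13), Trim30d (1.09), Trim30a (1.04), Eif2ak2 (0.94), Xaf1 (0.93) and Parp12 (0.62). With eplerenone plus lisinopril 16 were higher and none lower, against 0.375% of clusters called higher and 0.233% lower. The largest differences were for Bst2 (2.32 ± 0.27, adjusted p = 0.00548), Ifi213 (1.72), Rsad2 (1.69), Rnf213 (1.55) and Usp18 (1.53). The smallest adjusted p values were those of Phf11b (1.32 ± 0.13, adjusted p = 0.00308), Trim30d (1.34 ± 0.14, adjusted p = 0.0039) and Parp12 (1.00 ± 0.11, adjusted p = 0.00435). Trim30a, Xaf1, Zbp1, Eif2ak2, Parp14, Rtp4, Mx1 and Ddx58 completed the 16, with differences from 0.94 to 1.34. The median over the set was 0.70 for spironolactone plus lisinopril and 1.02 for eplerenone plus lisinopril. Trim25 was not past the threshold in either (0.30, adjusted p = 0.297, and 0.54, adjusted p = 0.119).

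These counts moved with single arrays. The count of 8 became 13 without untreated array 3, 5 without eplerenone array 2 or 3, and 1, 4 and 3 without spironolactone array 1, 2 and 3. Without prednisolone array 1, 2 and 3 it was 3, 1 and 3. Of all clusters, 0.822% were called in either direction with every array. That share was 0.687% without untreated array 3, 0.0822% without spironolactone array 1 and 0.0756% without prednisolone array 2. The count of 16 became 4 and 6 without eplerenone array 1 and 2, and 4 without prednisolone array 1 or 2. There the share of all clusters called went from 0.608% to 0.0986% and 0.164%, and to 0.105% and 0.0888%. In the fits listed here without a spironolactone, eplerenone or prednisolone array, count and share of all clusters fell together, though unevenly. Without prednisolone array 3, the count of 3 stood beside a share of 0.733%. Without untreated array 3, the count of 8 rose to 13 while the share fell. In that fit the count of 16 became 23, with the share unchanged at 0.608%. Phf11b kept its call in both comparisons without each of the 12 arrays, and Bst2, Trim30d and Parp12 did so for eplerenone plus lisinopril.

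**Figure D4:**
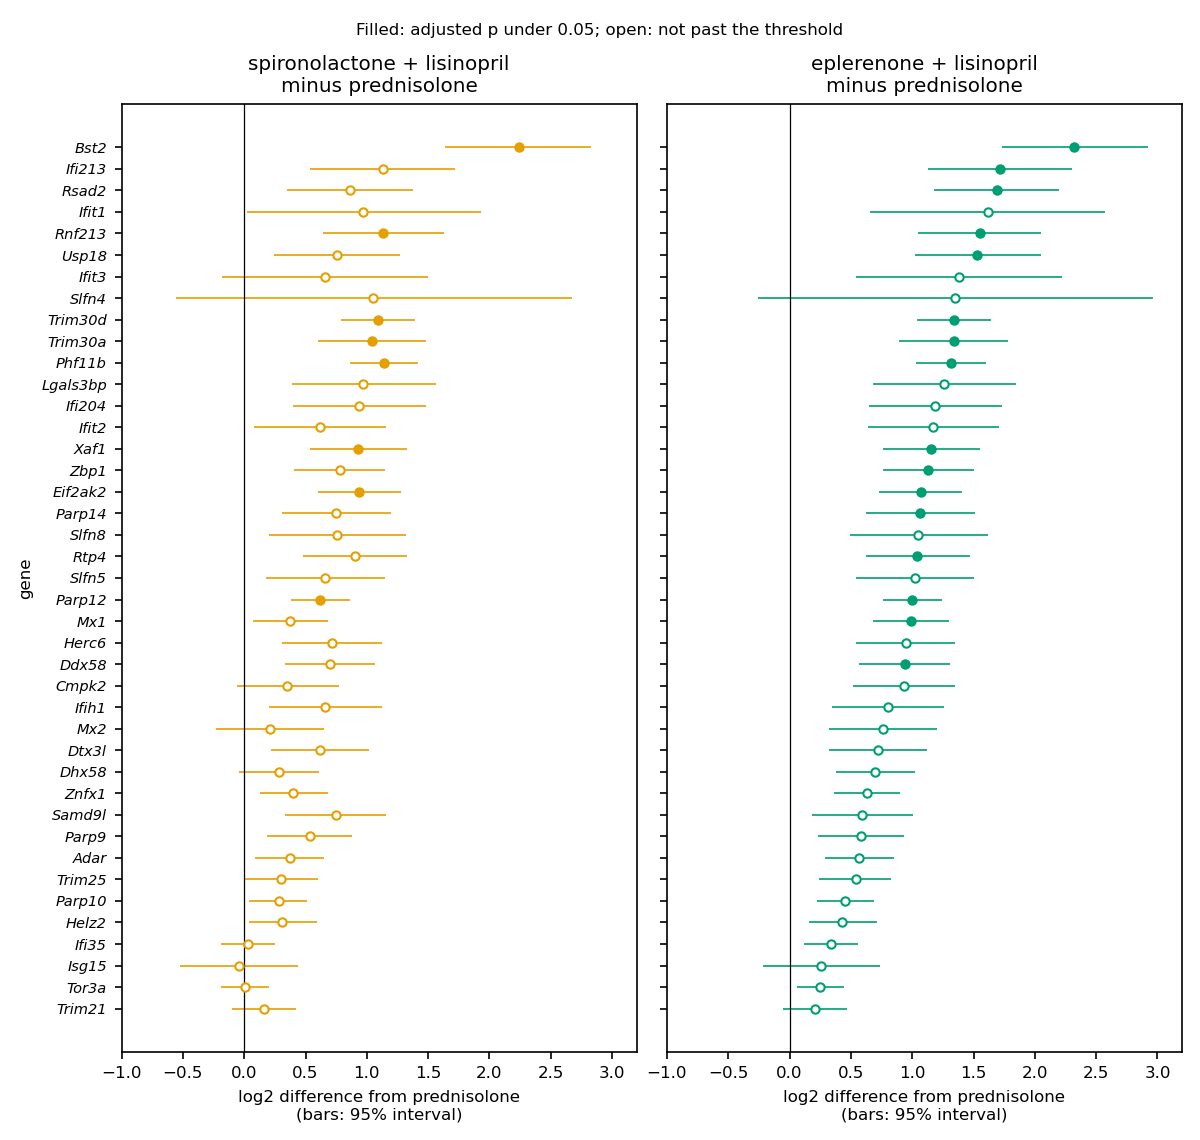
Log2 difference from prednisolone for the 41 effector genes with spironolactone plus lisinopril (left) and eplerenone plus lisinopril (right), with bars for the 95% interval and filled points for an adjusted p under 0.05; genes are in the order of the right panel. Bst2 is the highest point of both panels, at 2.24 and 2.32, with 8 filled points on the left and 16 on the right.

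Between the combinations, no effector gene passed, and neither did any of the 30412 clusters (limma, Benjamini-Hochberg). The aldosterone antagonists were given at different doses, 100 and 200 mg/kg per day. At an unadjusted p under 0.05, 10 of the 41 genes were lower with spironolactone plus lisinopril, against 2.62% of clusters, and none was higher, against 1.86%. The mean with spironolactone plus lisinopril was the lower of these in 40 of 41 genes, Samd9l being the exception, with a median difference of -0.29; 55.5% of all clusters were below 0. Rsad2 had the largest, -0.82 (95% interval -1.34 to -0.31, adjusted p = 0.998), and Mx1 the smallest unadjusted p (0.00103), at -0.62 (95% interval -0.92 to -0.31, adjusted p = 0.998). For Bst2 the interval was -0.68 to 0.51 and for Trim25 it was -0.53 to 0.06. From the lowest group mean to the highest, 32 of the 41 genes had the order prednisolone, spironolactone, eplerenone, untreated. The share of all clusters with that order was not computed. The genes were read in the same mice and varied together by array, so they are not separate observations of the order.

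Across the 4 groups at once, 27 of the 41 genes differed by a limma F-test at an adjusted p under 0.05, against 1.93% of clusters. That count fell to 6, 3 and 13 without prednisolone array 1, 2 and 3. The share of all clusters past the F-test in those fits was not computed.

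The rest of the pathway was followed in 70 measured genes of a list of 79. Under prednisolone 24 of them were lower and none higher. The count was 11 without untreated array 3, and 10, 7 and 15 without prednisolone array 1, 2 and 3. Of all clusters, 3.17% were called lower with every array, and 1.46%, 1.1%, 0.815% and 2.43% in those fits. None of the 18 measured interferon genes passed, and their median difference was 0.04. Ifnb1, the first type I interferon that most cells make, read 5.02, 4.83 and 4.63 untreated and 4.98, 5.45 and 5.10 under prednisolone, a difference of 0.35 (adjusted p = 0.454). Ifng, the interferon of T and NK cells, read 4.41, 4.65 and 4.20 untreated and 4.02, 4.27 and 4.34 under prednisolone, a difference of -0.21 (adjusted p = 0.52). Both lay among the lower signals of the arrays, whose medians were 5.70 to 5.81, where little change can be read. Of the 6 receptor genes 3 fell. Ifnar1 read 10.72, 11.15 and 10.73 untreated and 10.34, 10.16 and 10.45 under prednisolone (-0.55 ± 0.13, adjusted p = 0.0324). Ifnar2 read 10.90, 11.14 and 11.13 untreated and 10.65, 10.24 and 10.50 under prednisolone (-0.59 ± 0.11, adjusted p = 0.015). Il10rb, which serves the receptors of interleukin 10 and interferon lambda, was at -0.58.

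Of the 11 kinases and transcription factors of the pathway 5 fell. Stat2 read 9.70, 9.96 and 10.70 untreated, 9.41, 8.78 and 9.24 with spironolactone plus lisinopril, 9.98, 9.67 and 9.48 with eplerenone plus lisinopril, and 8.38, 8.47 and 8.49 under prednisolone, a difference of -1.67 ± 0.24 (adjusted p = 0.00449). Irf7, which amplifies interferon production, read 8.73, 8.74 and 9.04, then 8.68, 7.52 and 8.36, then 9.42, 8.88 and 8.38, and 7.51, 7.14 and 7.35, a difference of -1.50 ± 0.30 under prednisolone (adjusted p = 0.0164). Irf9 fell by 1.05 ± 0.15 (adjusted p = 0.00413), from 7.79, 7.94 and 8.45 untreated to 7.01, 7.01 and 7.02. Stat2 and Irf9, of the complex that binds the response element, were thus lower with the effectors. Irf1 fell by 0.79 and Jak1 fell by 0.63, while Tyk2 (0.01) and Irf3 (0.17) did not pass.

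Other interferon-stimulated families fell with the effectors. In the oligoadenylate synthetase family, which activates RNA decay, 7 of 8 fell, led by Oas2 (-2.29), Oasl2 (-1.72), Oas1a (-1.67) and Oas1g (-1.56), and Oas1c was at -0.06. Among the interferon-inducible GTPases 6 of 9 fell, namely Gbp2 (-1.60), Gbp7 (-1.37), Gbp9 (-1.36), Irgm1 (-1.22), Gbp4 (-1.19) and Gbp3 (-1.17). Of 12 genes for sensing adaptors and kinases, Myd88 (-1.06) and Tbk1 (-0.45) fell, and of 6 negative regulators the phosphatase gene Ptpn1 (-0.81) fell, all under prednisolone. Il10rb, Irf1, Jak1, Myd88, Tbk1 and Ptpn1 are named after their values were seen.

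Against untreated muscle none of the 70 pathway genes passed with either combination by limma. The smallest p values with spironolactone plus lisinopril were those of Oas1g (-0.95, adjusted p = 0.107), Oas1a (-0.96, adjusted p = 0.147) and Ptpn1 (-0.85, adjusted p = 0.154). With eplerenone plus lisinopril they were those of Jak2 (-0.72, adjusted p = 0.213), Ptpn1 (-0.67, adjusted p = 0.245) and Myd88 (-0.87, adjusted p = 0.254). Without untreated array 1, 6 pathway genes passed with spironolactone plus lisinopril and 4 with eplerenone plus lisinopril, in fits that called 1.76% and 1.42% of all clusters in either direction. Against prednisolone, Ifnar2 (0.60) and Oasl2 (1.15) were higher with spironolactone plus lisinopril. With eplerenone plus lisinopril 7 genes were higher: Oas2 (1.69), Irf7 (1.56), Oasl2 (1.53), Oas1a (1.34), Stat2 (1.26), Oas1g (1.16) and Oasl1 (0.79).

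**Figure D5:**
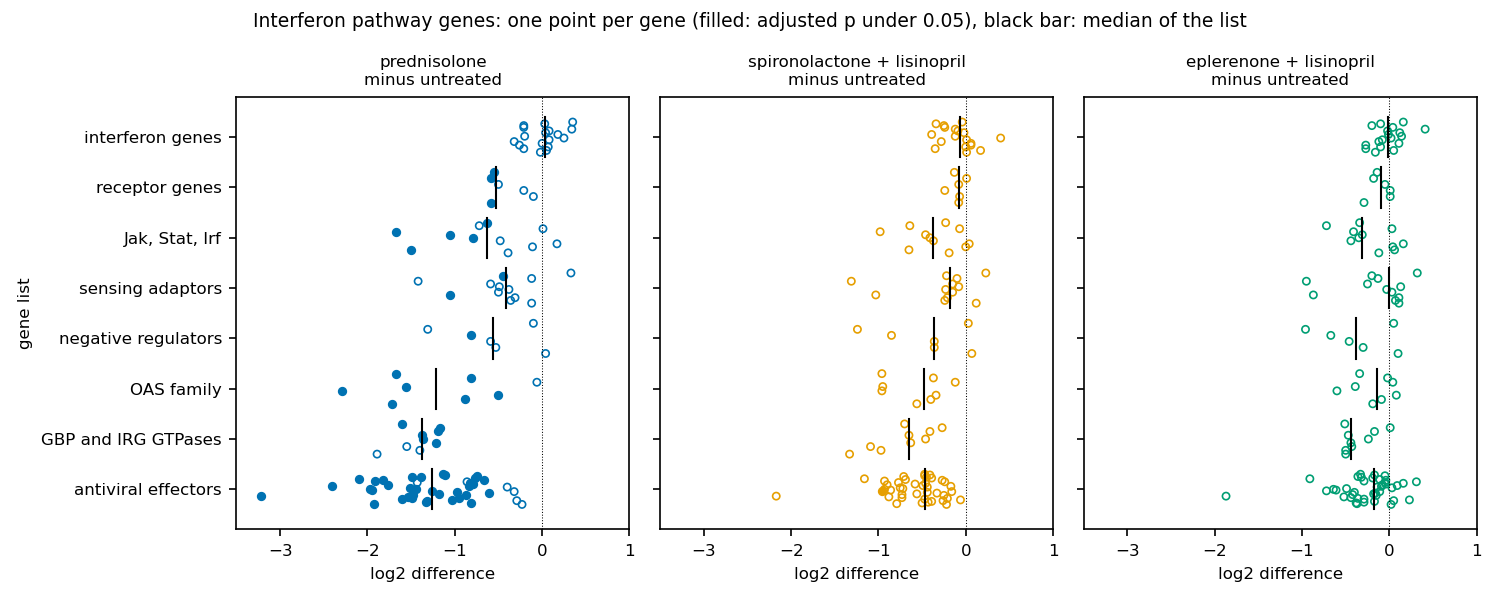
Log2 difference from untreated muscle for each gene of 7 interferon pathway lists and for the 41 antiviral effectors, with 1 panel per treatment, filled points for an adjusted p under 0.05 and a black bar for the list's median. Under prednisolone the bar is at 0.04 for the interferon genes, -0.53 for the receptor genes, -1.22 for the OAS family, -1.37 for the GTPases and -1.26 for the effectors; Trim25 with spironolactone plus lisinopril is the only filled point of the other panels.

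Markers of the cells in the tissue were read from the same arrays. Skeletal muscle genes lay at the top of the range in every array (Acta1 at 19.91 to 19.93). Acta1, Myh4 and Mylpf lay so near the highest values of the scale that a rise could hardly show. None of the 10 passed under prednisolone, and none was below 0, against 52.7% of all clusters. For 4 of them every prednisolone array lay above the untreated ones, as for 4066 of the 30412 clusters. Of 11 macrophage and monocyte markers 4 fell under prednisolone, namely Fcgr1 (-2.23), Cd14 (-1.55), Mrc1 (-1.22) and Ly6c2 (-0.76), while Itgam (-1.18), Adgre1 (-0.78), Ccr2 (-0.60), Cd68 (-0.43), Lyz2 (-0.34), Csf1r (-0.21) and Cd163 (0.07) did not pass. The summed log2 level of the 11 ran from 136.6 to 145.2 untreated, from 131.9 to 136.7 with spironolactone plus lisinopril, from 130.5 to 137.4 with eplerenone plus lisinopril and from 129.5 to 134.7 under prednisolone. Of the 11, 10 were below 0 under prednisolone, and 7 were lower at an unadjusted p under 0.05, against 3277 of 30412 clusters. Between the combinations and prednisolone no macrophage marker passed (limma, adjusted). At an unadjusted p under 0.05, 3 and 2 of the 11 were higher than prednisolone with spironolactone and eplerenone plus lisinopril. Of the 30412 clusters, 2266 and 1780 were higher by that measure. Fcgr1 was at 1.33 (adjusted p = 0.101) and 1.48 (adjusted p = 0.107) in these comparisons. Cd14 also fell with both combinations (-1.76 and -1.79). The 10 neutrophil markers summed to 62.2 to 80.3 untreated, with array 1 the lowest, and to 59.2 to 62.6 under prednisolone. Retnlg was the 1 past the adjusted threshold. The median of the 10 was -1.23, with 7 below 0 and 3 above. Those 7 were also lower at an unadjusted p under 0.05, but the groups did not overlap for only 1. Of 10 T and NK cell markers Cd3e fell (-0.40), and the list summed to 56.1 to 58.4 untreated and 53.3 to 54.0 under prednisolone.

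Among 9 markers of plasmacytoid dendritic cells, which make much type I interferon, only Bst2 fell, the same gene that is counted among the effectors. Siglech read 6.37 to 6.52 untreated and 6.33 to 6.50 under prednisolone. That list summed to 73.0 to 74.2 untreated and 71.3 to 74.2 under prednisolone. Its differences ran from -2.41 to 1.21, with 6 below 0 and 3 above, so falls and rises offset each other in the sum. It also held Cox6a2 and Tcf4, which other cells of muscle can express, so the sum does not measure plasmacytoid cells alone. In the endothelial list Cdh5 (-1.48) was the 1 of 6 that fell, in the fibroblast list Col1a1 (-0.66) and Col1a2 (-0.39) fell, 2 of 5, and none of 7 conventional dendritic cell or 5 B cell markers passed. Col1a1 and Col1a2 were also higher than under prednisolone with spironolactone plus lisinopril (0.62 and 0.42) and with eplerenone plus lisinopril (0.84 and 0.59). The T and NK cell list averaged 5.33 to 5.84 per array and the B cell list 5.36 to 5.75. Both lie around the array medians of 5.7 to 5.81, where little change can be read. Still, all 10 T and NK cell markers were below 0 under prednisolone, with a median of -0.37. Of these, 7 were lower at an unadjusted p under 0.05 (limma), against 3277 of 30412 clusters. For 6 every prednisolone array lay below every untreated array, against 13.3% of clusters. No B cell marker was lower at an unadjusted p under 0.05. The part of these markers in the fall of the effector genes was not tested. In whole muscle, fewer cells of a type and less RNA per cell cannot be told apart.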

How the data were processed

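Quadriceps RNA of 12 mice, 4 groups of 3 biological replicates, was hybridised to Affymetrix arrays after labelling with the GeneChip WT PLUS kit, per the labels' protocols. The authors deposited a log2 signal per cluster. The submitters' processing notes name RMA, Affymetrix Expression Console and Transcriptome Analysis Console; for versions, annotation release and build, nothing is stated in the labels or headers. RMA equalises array distributions, so differences are relative to the other genes of an array. In each array 1.27% to 1.34% of values exceed 16, the log2 ceiling of a 16-bit scanner; the step behind this is not given, so folds are folds on the deposited scale. Probe sequences were not used here, so shared signal between paralogs (Trim30a and Trim30d, Ifit, Slfn, Oas) was not tested.

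Of 65587 clusters, the platform annotation listed 32530, and the 30412 with exactly 1 symbol were tested, 827 of them with a symbol updated through the gene ID. The mean of each group was estimated from the 12 arrays together (limma 3.58.1, R 4.3.3, the data.table package, version 1.17.8), with 6 pairwise two-sided comparisons, an F-test and Benjamini-Hochberg adjustment over the 30412 clusters at 0.05. Residual degrees of freedom were 8, and 2.94 were added by the prior. No value was filtered. The number of arrays limits precision: an exact permutation test of 3 against 3 cannot give a p below 0.1. No array pair held identical values. On simulated data for prednisolone against untreated (30412 genes), 90% of changes of log2 size 1 and 97% of size 2 were recovered, with 10 false calls. The simulation changed 100 genes of each size and gave each gene independent normal noise of equal spread in all groups. The effector genes vary together and spread unequally between groups, so these rates need not hold for them.

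Array values are given for the 2 genes per role with the largest difference under prednisolone and for each effector gene past the threshold in a combination against untreated. Isg15, S100a8 and S100a9 were added after their values were seen. In the pathway lists, genes past the threshold were named, at most the 12 largest, or the 3 smallest p where none passed, with Stat2, Irf9, Irf7, Ifnar1, Ifnar2, Ifnb1 and Ifng always. A listed gene is not reported here. Members, lists and tests were chosen with earlier results of these data known. Array values, promoter counts and figures used Python 3.11.15, pandas 2.3.3 and matplotlib 3.10.9. Alternatives covered normalization, variance model, array weights, tested clusters, the replicate block, each array left out and untreated array 1 as the only control.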

Additional observations from a re-analysis of the deposited data

How the results depend on the processing

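Under prednisolone against untreated, the 35 effector genes past the threshold became 34 to 37 with quantile normalization, equal medians, an intensity trend with robust variances, array weights or without the dimmest 30% of clusters. They became 33 with all clusters tested, 31 with the replicate block, 26 when only the 2 groups were fitted and 25 to 36 without 1 array. Of all clusters 6.39% were called in either direction with every array, 1.5% without prednisolone array 2 and 8.69% without untreated array 1. With untreated array 1 as the only control, whose spread is taken from the other groups, 13 passed, and 3 of the pathway's 24; 146 of 30412 clusters were called. The pathway count was 15 with all clusters, 9 with only the 2 groups and 7 to 30 without 1 array. Of the 35 calls, 13 passed in all 21 alternatives.

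Against untreated, the spironolactone count of 1 was 2 with array weights or without dim clusters. It was 0 with all clusters, only 2 groups, the replicate block or untreated array 1, and 0 to 5 without 1 array. The eplerenone count of 0 became at most 2 without 1 array. Pathway counts without 1 array were 0 to 6 for spironolactone and 0 to 4 for eplerenone. Against prednisolone, the spironolactone count of 8 was 5 with quantile normalization, 13 with array weights, 4 with all clusters or the replicate block, 2 with only 2 groups and 1 to 13 without 1 array. The eplerenone count of 16 was 4 to 23 without 1 array. The F-test count of 27 was 3 to 27 without 1 array.

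Medians without 1 array were -1.36 to -1.15 for prednisolone, -0.59 to -0.35 for spironolactone and -0.30 to -0.08 for eplerenone. The spironolactone count past a fold of 2 was 6 with array weights and 1 to 8 without 1 array. That for eplerenone was 2 with array weights, 0 with untreated array 1 and 1 to 2 without 1 array. Genes whose groups did not overlap, in either direction, numbered 35 for spironolactone and 21 for eplerenone with untreated array 1; 34 and 17 of these were lower, against 31.8% and 27.7% of all clusters. The counts were 23 to 33 and 9 to 17 without 1 array. Promoter matches fell from 15 genes to 8 with the longer core. Bst2 under spironolactone was at 0.01 without spironolactone array 2 (-0.27 to 0.01 over the 12). Some of these fits held fewer arrays or more clusters, and the cause of the shifts was not tested. Deviations of same-numbered arrays correlated at -0.237 to 0.157, with 4 of 18 pairs over 0.1. For arrays of different numbers the correlations were -0.295 to 0.267, with 12 of 36 pairs over 0.1. The numbers are used here only to name the arrays, and whether same-numbered mice were paired in any way was not tested. Taking the cluster with the lowest mean could change nothing, as all 41 genes had 1 cluster. Paralog identity was not computed.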
